A study of Mus musculus with 24 samples.

Results

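Shp2 KO hepatocytes were set against IkkB KO hepatocytes, gene by gene, over 10785 of 24319 genes, those with a value of 1 or more in either knockout. Ptpn11 encodes Shp2, a phosphatase of tyrosine residues that carries signals from growth factor receptors to Ras and Erk. Ikbkb encodes IkkB, the kinase that releases NF-kB from its inhibitors when cells meet cytokines or bacterial products. Hepatocytes use NF-kB and Stat3 to make acute phase proteins, Ras and Erk to answer growth factors, and the pulse pattern of growth hormone to keep the sex-specific set of metabolic enzymes.

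The samples were isolated hepatocytes from 2-month-old male C57/BL6 mice, with 3 biological replicates per genotype. The Shp2 KO mice carried Alb-Cre with Shp2f/f, the IkkB KO mice Alb-Cre with IkkBf/f, the Double KO mice Alb-Cre with both floxed genes, and the WT mice were labelled wild type. Alb-Cre is driven by the albumin promoter, so the deletion is aimed at hepatocytes, and all 3 knockout groups share this transgene. Deletion in other liver cells was not tested. Whole liver of the same 4 genotypes, again with 3 replicates each, served as a second set of libraries. The deposited hepatocyte table gave 1 value per gene and genotype, by convention in FPKM (fragment counts divided by transcript length and sequencing depth), and no value per replicate. It held each knockout against WT but no test of Shp2 KO against IkkB KO.

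The difference used throughout is therefore log2((Shp2 KO + 1)/(IkkB KO + 1)), with no test, and a gene is described as higher or lower past 2-fold when it reached 1 or -1 on this scale. Errors and depth per sample cannot be given from these values. The replicate error enters only through the q-values in the authors' deposited tables for each knockout against WT, and for Shp2 KO against IkkB KO in whole liver. A gene is called where such a q-value was under 0.05. Shares of all genes tested cover only genes with a value of 1 or more in either knockout in hepatocytes. Small RNA genes and genes marked too abundant to test are left out of these shares. The knockout comparisons share the WT libraries, so their values are placed side by side only. St6galnac4, at 0.174 in Shp2 KO and 1.001 in IkkB KO, was the lowest gene inside the level threshold, and Ttc41, at 0.9997 in Shp2 KO and 0.788 in IkkB KO, was the highest outside it.

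The targeted genes followed the labels. Ptpn11 stood at 4.47 in Shp2 KO hepatocytes, 14.5 in IkkB KO, 5.77 in Double KO and 16.3 in WT, a difference of -1.50 between the single knockouts. Ikbkb stood at 15.1 in Shp2 KO, 7.16 in IkkB KO, 5.29 in Double KO and 17.3 in WT, a difference of 0.98. Each gene was therefore low in the group that lacked it and in the Double KO, and close to WT in the other single knockout. The Y-linked Ddx3y had 11.2 in Shp2 KO and 13.9 in IkkB KO, and Xist lay under 0.01 in both, as the label of male mice states.

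Across all 10785 genes, 317 (2.94%) were higher past 2-fold in Shp2 KO and 298 (2.76%) were lower. The 10785 genes include 225 whose values cannot be read as levels, which make up 67 of the 317 higher and 79 of the 298 lower ones. They are 215 genes of small RNAs, shorter than the fragments of a polyA library, and 10 genes that the authors' program marked as too abundant to test and listed at 0 in 1 or more groups. The abundant ones include Apoa1, C3, Mup3, Mup20, Serpina1e and Serpina3k. Of the other 10560 genes, 250 (2.37%) were higher past 2-fold and 219 (2.07%) lower. Of these, 90 of the higher genes were under 1 in IkkB KO and 42 of the lower ones under 1 in Shp2 KO, so that they entered through the group where they are high, which fixes their direction. Past 4-fold there were 75 higher and 38 lower, and past 8-fold 24 higher and 12 lower. The median difference was -0.02 and the 5th and 95th percentiles were -0.64 and 0.65, so most genes were close to equal. The share past 2-fold in either direction was 3.69% where the higher value was 1 to 10, 4.63% at 10 to 100 and 8.64% at 100 or more.

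**Figure D1:**
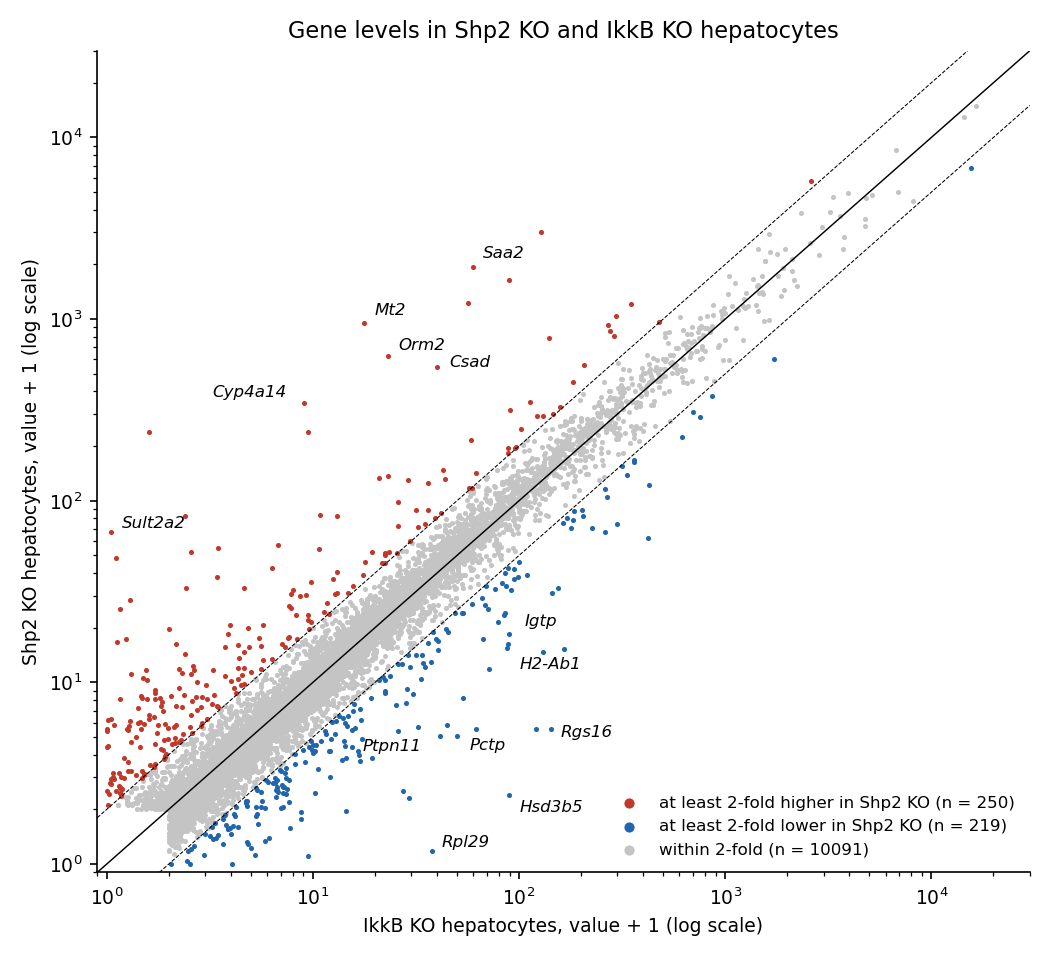
Level of each of the 10560 genes described (value + 1, log scales) in Shp2 KO hepatocytes on the vertical axis and IkkB KO hepatocytes on the horizontal axis, 1 point per gene, with dashed lines at 2-fold. The 250 red genes lie above the band and the 219 blue ones below it, with Mt2, Orm2 and Cyp4a14 among the labelled genes far above it and Hsd3b5, Rgs16 and Rpl29 among those far below.

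The acute phase proteins, which hepatocytes release in inflammation, held several of the widest gaps. Of 25 listed genes described, 10 were higher past 2-fold in Shp2 KO and 0 lower, with a median difference of 0.48 against -0.02 over all genes. Saa2, a serum amyloid A apolipoprotein, stood at 1940 in Shp2 KO, 58.6 in IkkB KO, 266 in Double KO and 1299 in WT. Saa1, its neighbour, stood at 3003 in Shp2 KO, 127 in IkkB KO, 397 in Double KO and 1998.5 in WT. Both were thus low where Ikbkb was deleted, with or without Shp2, and high in Shp2 KO and WT. Neither passed between Shp2 KO and WT in the authors' deposited table (q = 0.457 for Saa2 and 0.454 for Saa1), and both were lower in IkkB KO than in WT (q = 0.00048 each, the smallest value in that table). Their coding sequences are nearly identical, so the split of reads between them is uncertain.

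Orm2 and Lcn2 had another order of the genotypes. Orm2, the plasma carrier orosomucoid, stood at 627 in Shp2 KO, 22.0 in IkkB KO, 174 in Double KO and 41.6 in WT. Lcn2, lipocalin 2, which binds bacterial siderophores, stood at 237 in Shp2 KO, 8.51 in IkkB KO, 26.1 in Double KO and 56.3 in WT. Both were highest in Shp2 KO and lowest in IkkB KO, with WT between them. In the authors' deposited table both rose in Shp2 KO against WT (q = 0.00048) and fell in IkkB KO against WT (q = 0.00197 for Orm2 and 0.00048 for Lcn2). The other 6 past 2-fold, named after their values were seen, were Orm3, Saa3, Cd14, Hp, Lbp and Apcs, with differences of 4.34 for Orm3 down to 1.03 for Apcs. The fibrinogen chains did not share the gap: Fga, Fgb and Fgg differed by 0.03, -0.05 and 0.04.

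Over the whole list, the authors' deposited table had 6 of 25 genes that rose and 3 that fell in Shp2 KO against WT, where 6.83% and 4.78% of all genes tested did. In IkkB KO against WT, by the same table, 1 rose and 10 fell, where 6.13% and 1.96% of all genes tested did. In whole liver the authors' deposited table for Shp2 KO against IkkB KO called 7 of the 25 higher and 2 lower (background 5.22% and 5.07%), and Saa2 was at 504 in Shp2 KO, 76.7 in IkkB KO, 1280.1 in Double KO and 233 in WT liver. Double KO was thus the highest group in liver for Saa2, unlike in hepatocytes.

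The promoters of these genes are shown because all were higher past 2-fold and because regulators of acute phase genes, NF-kB and the C/EBP factors, have known recognition letters. Windows of 250 bases before to 50 after the start were taken from RefSeq for build GRCm38.p6, and 7 of the 10 genes past 2-fold had one. TTGCNNAA, the C/EBP pattern, was present on either strand in 6 of the 7, and in 10.8% of all 32851 promoters. The 6 include copies, Saa1 and Saa2 with Saa3 and Orm2 with Orm3, so they are not independent. The NF-kB consensus, which allows several bases at some positions, was present in 0 of the 7 and in 4.51% of all promoters. TTCNNNGAA, the pattern of Stat dimers, was present in 1 of the 7 and in 8.30% of all promoters. Capitals mark TTGCNNAA, each window is written 5′ to 3′ on the strand of its gene, and the 4 genes with the highest differences are given.
Saa2, chr7:46751583-46751882, plus strand: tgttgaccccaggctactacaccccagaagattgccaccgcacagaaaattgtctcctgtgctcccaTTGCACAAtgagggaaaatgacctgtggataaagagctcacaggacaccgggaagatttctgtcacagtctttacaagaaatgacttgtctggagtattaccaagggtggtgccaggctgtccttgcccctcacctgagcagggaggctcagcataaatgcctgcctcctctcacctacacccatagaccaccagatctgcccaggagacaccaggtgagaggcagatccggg
Saa1, chr7:46742931-46743230, minus strand: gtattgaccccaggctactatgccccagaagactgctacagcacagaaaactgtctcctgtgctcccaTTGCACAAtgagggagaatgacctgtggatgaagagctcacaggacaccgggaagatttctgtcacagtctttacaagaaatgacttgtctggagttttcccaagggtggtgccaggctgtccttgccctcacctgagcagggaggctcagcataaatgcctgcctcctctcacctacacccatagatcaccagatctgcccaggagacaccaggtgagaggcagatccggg
Orm2, chr4:63362199-63362498, plus strand: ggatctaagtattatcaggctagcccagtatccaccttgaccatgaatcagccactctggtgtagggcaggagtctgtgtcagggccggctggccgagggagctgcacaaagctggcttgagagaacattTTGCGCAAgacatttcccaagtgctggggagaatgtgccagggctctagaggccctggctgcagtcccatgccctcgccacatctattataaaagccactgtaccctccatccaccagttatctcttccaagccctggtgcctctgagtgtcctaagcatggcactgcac
Lcn2, chr2:32387690-32387989, minus strand: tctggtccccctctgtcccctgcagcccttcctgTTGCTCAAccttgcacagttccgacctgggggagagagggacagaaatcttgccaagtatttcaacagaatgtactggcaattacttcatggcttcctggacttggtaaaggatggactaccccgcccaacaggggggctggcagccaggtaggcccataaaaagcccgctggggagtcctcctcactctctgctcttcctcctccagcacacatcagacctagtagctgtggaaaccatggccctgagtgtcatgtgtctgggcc
The Saa1 and Saa2 windows carry the same 8 letters, TTGCACAA. In Orm2 the match, TTGCGCAA, reads the same on both strands.

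The metallothioneins, small zinc- and copper-binding proteins, showed a gap of the same kind. Mt2 stood at 952 in Shp2 KO, 16.8 in IkkB KO, 26.1 in Double KO and 464 in WT, and Mt1 at 1226 in Shp2 KO, 55.3 in IkkB KO, 46.6 in Double KO and 573 in WT. In hepatocytes both were low wherever Ikbkb was deleted, and above WT in Shp2 KO. The authors' deposited table gave q = 0.043 for Mt2 and 0.0301 for Mt1 in Shp2 KO against WT, and q = 0.00048 for both in IkkB KO against WT. The 4 other genes described, zinc transporters of the Slc30 and Slc39 families, differed by -0.49 to 0.27. In whole liver Mt2 had 99.6 in Shp2 KO, 44.7 in IkkB KO, 220.1 in Double KO and 1032 in WT, and Mt1 had 194 in Shp2 KO, 133 in IkkB KO, 386 in Double KO and 1675 in WT. The liver order thus differed, with WT highest and Double KO above Shp2 KO. Between Shp2 KO and IkkB KO liver the authors' deposited table gave q = 0.000955 for Mt2, the smallest there, and 0.0801 for Mt1. Their promoters are shown with TGCNCNC, a loose form of the core of the metal response element, in capitals. This short pattern is in 51.0% of all promoters, with 6 matches in the Mt2 window and 3 in the Mt1 window.
Mt2, chr8:94172368-94172667, plus strand: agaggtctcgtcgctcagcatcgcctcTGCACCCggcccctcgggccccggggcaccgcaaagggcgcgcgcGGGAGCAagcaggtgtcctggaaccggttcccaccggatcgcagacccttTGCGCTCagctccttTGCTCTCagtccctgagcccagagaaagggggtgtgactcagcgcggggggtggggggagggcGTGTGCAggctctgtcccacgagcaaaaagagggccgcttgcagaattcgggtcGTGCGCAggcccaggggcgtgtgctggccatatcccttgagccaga
Mt1, chr8:94178839-94179138, plus strand: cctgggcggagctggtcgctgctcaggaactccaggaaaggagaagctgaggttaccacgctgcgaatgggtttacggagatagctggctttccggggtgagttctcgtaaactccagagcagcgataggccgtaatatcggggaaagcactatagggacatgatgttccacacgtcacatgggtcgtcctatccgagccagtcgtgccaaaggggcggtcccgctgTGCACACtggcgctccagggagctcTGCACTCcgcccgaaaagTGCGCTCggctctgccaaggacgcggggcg

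Genes that mouse liver expresses at different levels in females and males held wide differences in both directions. Of 14 female-biased genes described, 13 were higher past 2-fold in Shp2 KO, with a median difference of 2.06, and Abcd2, named after its value was seen, was lower at -1.20. Of the 13, 8 were under 1 in IkkB KO and met the level threshold in Shp2 KO alone, so their direction was fixed by it and the count and median are a description. Sult2a2 and Sult2a1, sulfotransferases of bile acids and steroids, stood at 65.9 and 47.6 in Shp2 KO and under 0.12 in the other 3 genotypes. Both transcripts were thus present in Shp2 KO hepatocytes and near 0 in every other hepatocyte group.

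The support for them differs. In the authors' deposited table Sult2a1 had q = 0.0216 in Shp2 KO against WT, and Sult2a2 did not pass (q = 0.107). Sult2a1 and Sult2a2 are near-identical copies, so reads may be split between them. In whole liver both were below 1 in both single knockouts: Sult2a1 and Sult2a2 were listed at 0.011 and 0.0167 in Shp2 KO liver and at 0 in IkkB KO liver. Cyp2c69, a cytochrome P450, behaved differently, with 27.6 in Shp2 KO, 0.304 in IkkB KO, 14.4 in Double KO and 3.09 in WT hepatocytes, and 30.2 in Shp2 KO and 3.30 in IkkB KO liver. For the list, the authors' deposited tables called 11 of 14 genes higher in Shp2 KO than in WT hepatocytes and 0 lower. Over all genes tested 6.83% were higher and 4.78% lower. Since 8 of the 14 were described only through their level in Shp2 KO, this count is a description and not support. By the same tables, 3 of 10 were higher and 2 lower in IkkB KO against WT (6.13% and 1.96% of all genes tested). In Shp2 KO against IkkB KO liver 3 of 11 were higher and 4 lower (5.22% and 5.07% of all genes tested).

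Male-biased genes went the other way: 12 of 18 were lower past 2-fold in Shp2 KO and 2 higher, with a median difference of -1.52. Of the 12, 1 was under 1 in Shp2 KO, which fixed its direction. Hsd3b5, a steroid dehydrogenase of male mouse liver, stood at 1.40 in Shp2 KO, 88.1 in IkkB KO, 6.02 in Double KO and 150 in WT. Mup1, a major urinary protein, stood at 4.52 in Shp2 KO, 120 in IkkB KO, 4.74 in Double KO and 137 in WT. Slco1a1, an organic anion transporter, stood at 13.8 in Shp2 KO, 129 in IkkB KO, 20.2 in Double KO and 126 in WT. In each, Shp2 KO and Double KO were both below IkkB KO and WT. Serpina12, also called vaspin, had 1.53 in Shp2 KO and 26.3 in IkkB KO. The exceptions, named after their values were seen, were Cyp4a12a and Cyp4a12b, fatty acid hydroxylases, with differences of 1.79 and 2.95. Of the 18, by the authors' deposited tables, 16 fell and 1 rose in Shp2 KO against WT, 7 fell and 1 rose in IkkB KO against WT, and 6 were lower and 3 higher in Shp2 KO than in IkkB KO liver. Over all genes tested, 4.78% fell and 6.83% rose in Shp2 KO against WT, and 1.96% fell and 6.13% rose in IkkB KO against WT. For the liver pair 5.07% were lower and 5.22% higher. Mup12 (-3.66) and Mup16 (-3.02) also stood among the 12 lowest differences; Mup genes are near-identical copies and 6 more of them were too abundant to test.

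The growth hormone axis, which sets this sex-specific program, was mixed: 2 of 13 genes were higher past 2-fold and 3 lower. Cux2, a repressor found in female liver, stood at 4.78 in Shp2 KO, 0.279 in IkkB KO, 0.0705 in Double KO and 0.434 in WT (q = 0.00048 for Shp2 KO against WT in the authors' deposited table). Cux2 was under 1 in IkkB KO and described only through its level in Shp2 KO, which fixed its direction. Prlr, the prolactin receptor, had 50.9 in Shp2 KO and 21.3 in IkkB KO. Bcl6, a repressor of female-biased genes in male liver and named after its value was seen, had 3.79 in Shp2 KO and 8.77 in IkkB KO, and Onecut1, a hepatocyte transcription factor, had 5.40 in Shp2 KO and 13.0 in IkkB KO. Egfr, whose level follows growth hormone in mouse liver, had 69.6 in Shp2 KO and 178 in IkkB KO. Ghr, the growth hormone receptor, differed by -0.39 and Stat5b, its main transcription factor, by 0.18.

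**Figure D2:**
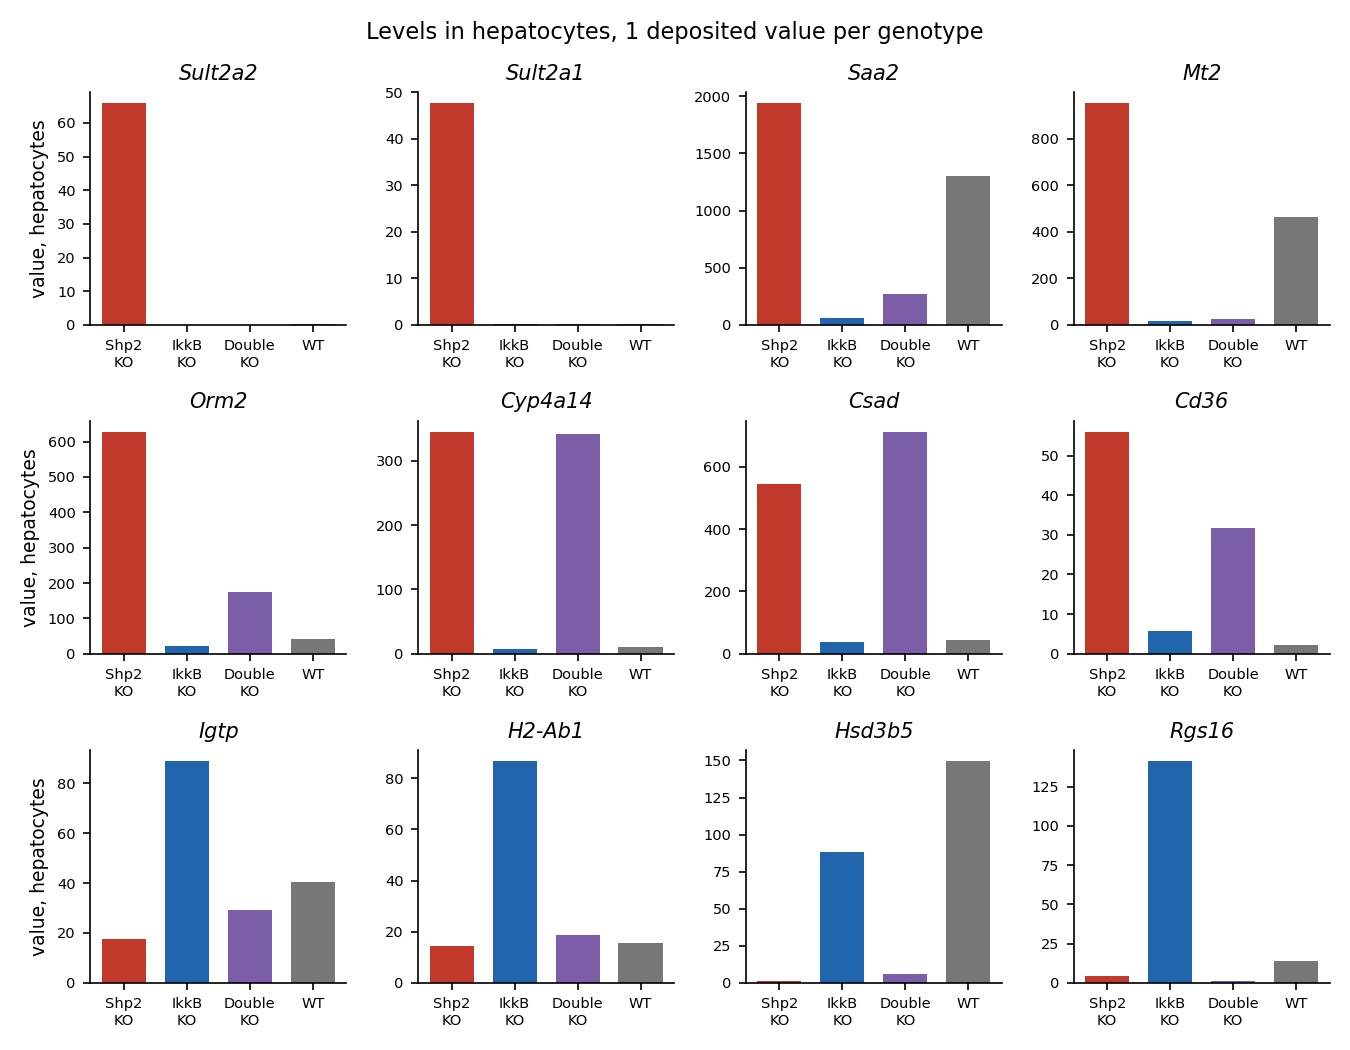
Levels of 12 genes (deposited value, linear axes from 0) in Shp2 KO, IkkB KO, Double KO and WT hepatocytes, 1 bar per genotype and no error bars because 1 value per genotype was deposited. Sult2a2 and Sult2a1 have a visible bar in Shp2 KO alone, Saa2 and Mt2 have their tallest bars in Shp2 KO and WT, Cyp4a14 and Csad in Shp2 KO and Double KO, and Igtp, H2-Ab1 and Rgs16 are highest in IkkB KO.

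Families of drug-metabolising enzymes held many genes that were higher in Shp2 KO. They were grouped by symbol, a choice made after values had been seen: 8 of 13 Cyp2c genes were higher past 2-fold and 0 lower, as were 2 of 4 Cyp3a genes and 2 of 2 Cyp2b genes. Among these higher ones, 2 Cyp2c genes and 1 Cyp2b gene were under 1 in IkkB KO, which fixed their direction. Of 7 Sult2a genes 6 were higher, all of them under 1 in IkkB KO and so described only because they are high in Shp2 KO, and Sult2a8 was lower (87.4 in Shp2 KO and 200.4 in IkkB KO). In liver the authors' deposited table called 4 of 13 Cyp2c genes higher and 3 lower in Shp2 KO than in IkkB KO, 1 of 4 Cyp3a genes higher and 0 lower, and both Cyp2b genes lower. Over all genes tested there, 5.22% were higher and 5.07% lower. The Ugt genes, which add glucuronic acid, did not lean this way: of 15, 0 were higher past 2-fold and 2 lower, the male-biased Ugt2b1 (-1.67) and Ugt2b38 (-2.89), with a median of 0.03. Of these 2 lower ones 1 was under 1 in Shp2 KO, which fixed its direction. Cyp3a11, the main drug-oxidising P450 of mouse liver, stood at 1645 in Shp2 KO, 88.0 in IkkB KO, 1155 in Double KO and 175 in WT. Cyp2c29, an abundant member of its family, stood at 558 in Shp2 KO, 205 in IkkB KO, 510 in Double KO and 567 in WT. Cyp3a11 was thus above WT in Shp2 KO, and Cyp2c29 was below WT in IkkB KO. Members of these families share long stretches of sequence, so their single values are uncertain.

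Fatty acid oxidation genes controlled by PPARalpha had 6 of 27 members higher past 2-fold and 0 lower, with a median of 0.29. Cyp4a14, which hydroxylates fatty acids at their end, stood at 344 in Shp2 KO, 8.01 in IkkB KO, 342 in Double KO and 9.77 in WT. Acot1, which releases fatty acids from coenzyme A, stood at 13.4 in Shp2 KO, 1.40 in IkkB KO, 20.5 in Double KO and 3.49 in WT. Double KO was close to or above Shp2 KO in both. In the authors' deposited table Acot1 was lower in IkkB KO than in WT (q = 0.00889), while Cyp4a14 did not pass (q = 0.445). Of the 6 members past 2-fold 4 were hydroxylases or thioesterases (Cyp4a14, Cyp4a10, Acot1 and Acot2), while Cpt1a, which admits fatty acids to mitochondria, differed by -0.15. Acot2, at 5.58 in Shp2 KO and 0.601 in IkkB KO, reached 1 in Shp2 KO alone, which fixed its direction. The authors' deposited tables had 11 of 27 that rose in Shp2 KO against WT and 0 that fell (6.83% and 4.78% of all genes tested). In liver, by these tables, 11 were higher and 1 lower in Shp2 KO than in IkkB KO (5.22% and 5.07% of all genes tested).

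Lipid uptake and droplet genes had 6 of 11 members higher past 2-fold, with a median of 1.05. Of the 6, 2 were under 1 in IkkB KO, which fixed their direction. Cd36, a fatty acid importer, stood at 55.9 in Shp2 KO, 5.80 in IkkB KO, 31.7 in Double KO and 2.31 in WT. Pparg, the receptor that drives fat storage, stood at 10.3 in Shp2 KO, 1.32 in IkkB KO, 11.0 in Double KO and 0.914 in WT. Fitm1, a lipid droplet protein, and Plin4, a droplet coat protein, differed by 1.70 and 1.30. The gene lower past 2-fold, named after its value was seen, was Fabp1, the abundant fatty acid carrier of the hepatocyte, at 6814 in Shp2 KO and 15528 in IkkB KO. The authors' deposited liver table called 7 of the 11 higher in Shp2 KO than in IkkB KO and 0 lower (5.22% and 5.07% of all genes tested). Fatty acid synthesis genes leaned the other way, with 14 of 16 lower in Shp2 KO but 1 past 2-fold, the elongase Elovl6 (18.8 in Shp2 KO and 43.3 in IkkB KO).

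Cholesterol synthesis enzymes were higher in Shp2 KO as a group, by small steps: 21 of 23 differed upward, 6 of them past 2-fold, with a median of 0.68. Msmo1, which demethylates a sterol precursor, stood at 247 in Shp2 KO, 102 in IkkB KO, 180.3 in Double KO and 119.6 in WT. Mvk, mevalonate kinase, and Fdft1, squalene synthase, differed by 1.16 and 1.14. By the q-values of the authors' deposited tables, 14 of 23 rose and 0 fell in Shp2 KO against WT (6.83% and 4.78% of all genes tested). In IkkB KO against WT, by the same q-values, 0 rose and 1 fell (6.13% and 1.96%). In liver 9 were higher in Shp2 KO than in IkkB KO and 0 lower (5.22% and 5.07%).

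Bile acid genes differed past 2-fold at few steps. Cyp7a1, which catalyses the limiting step from cholesterol to bile acids, stood at 97.0 in Shp2 KO, 24.8 in IkkB KO, 96.5 in Double KO and 24.6 in WT. Csad, which makes taurine for bile acid conjugation, stood at 544 in Shp2 KO, 38.8 in IkkB KO, 711 in Double KO and 45.0 in WT. Akr1d1, a reductase of the pathway, was just past 2-fold, and the other 14 of 17 genes lay within it. Cyp7a1 and Csad rose in Shp2 KO against WT in the authors' deposited table (q = 0.00048 each), and both were higher in Shp2 KO than in IkkB KO liver, with Cyp7a1 at 135 in Shp2 KO and 48.6 in IkkB KO and Csad at 749 in Shp2 KO and 86.4 in IkkB KO. Of 17 transporters, Slc51b, a subunit of the basolateral bile acid exporter, Abcb1a, a drug pump, and Abcb11, the bile salt export pump, were higher past 2-fold, with differences of 2.04, 1.70 and 1.17, and 0 were lower. Abcb1a was under 1 in IkkB KO (0.780), which fixed its direction.

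Smaller groups had 1 or a few members past 2-fold. Glutathione and Nrf2 genes had Gstm3 (129 in Shp2 KO and 28.0 in IkkB KO) and Gstm2 higher, and Gclc, the catalytic subunit of glutathione synthesis, lower at 41.9 in Shp2 KO and 87.7 in IkkB KO. Glucose metabolism had 5 of 15 lower and 0 higher, with a median of -0.55, among them Pklr, liver pyruvate kinase, at 104 in Shp2 KO and 265 in IkkB KO, and Gys2, liver glycogen synthase, at 81.7 in Shp2 KO and 203 in IkkB KO. Fetal and tumour markers had 6 of 11 higher and 1 lower, Tff3, a trefoil peptide, at 24.3 in Shp2 KO and 69.9 in IkkB KO. Another 12 of the 23 listed genes were under 1 in both. Of the 11, 5 reached 1 in Shp2 KO alone, among them 3 of the 6 higher ones, so the level threshold fixed their direction. H19, an imprinted noncoding RNA of fetal liver, stood at 24.5 in Shp2 KO, 0.166 in IkkB KO, 14.1 in Double KO and 0.149 in WT, and Ly6d, a surface protein, at 31.9 in Shp2 KO, 1.42 in IkkB KO, 43.1 in Double KO and 0.632 in WT. Afp, the fetal albumin relative, was 1.20 in Shp2 KO and 0.721 in IkkB KO. Asns, asparagine synthetase, was the stress gene past 2-fold of 22 (7.76 in Shp2 KO and 0.71 in IkkB KO), and Bmp6, a signal for hepcidin, the iron gene past 2-fold of 12 (6.29 in Shp2 KO and 1.33 in IkkB KO). Asns was under 1 in IkkB KO, which fixed its direction.

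**Figure D3:**
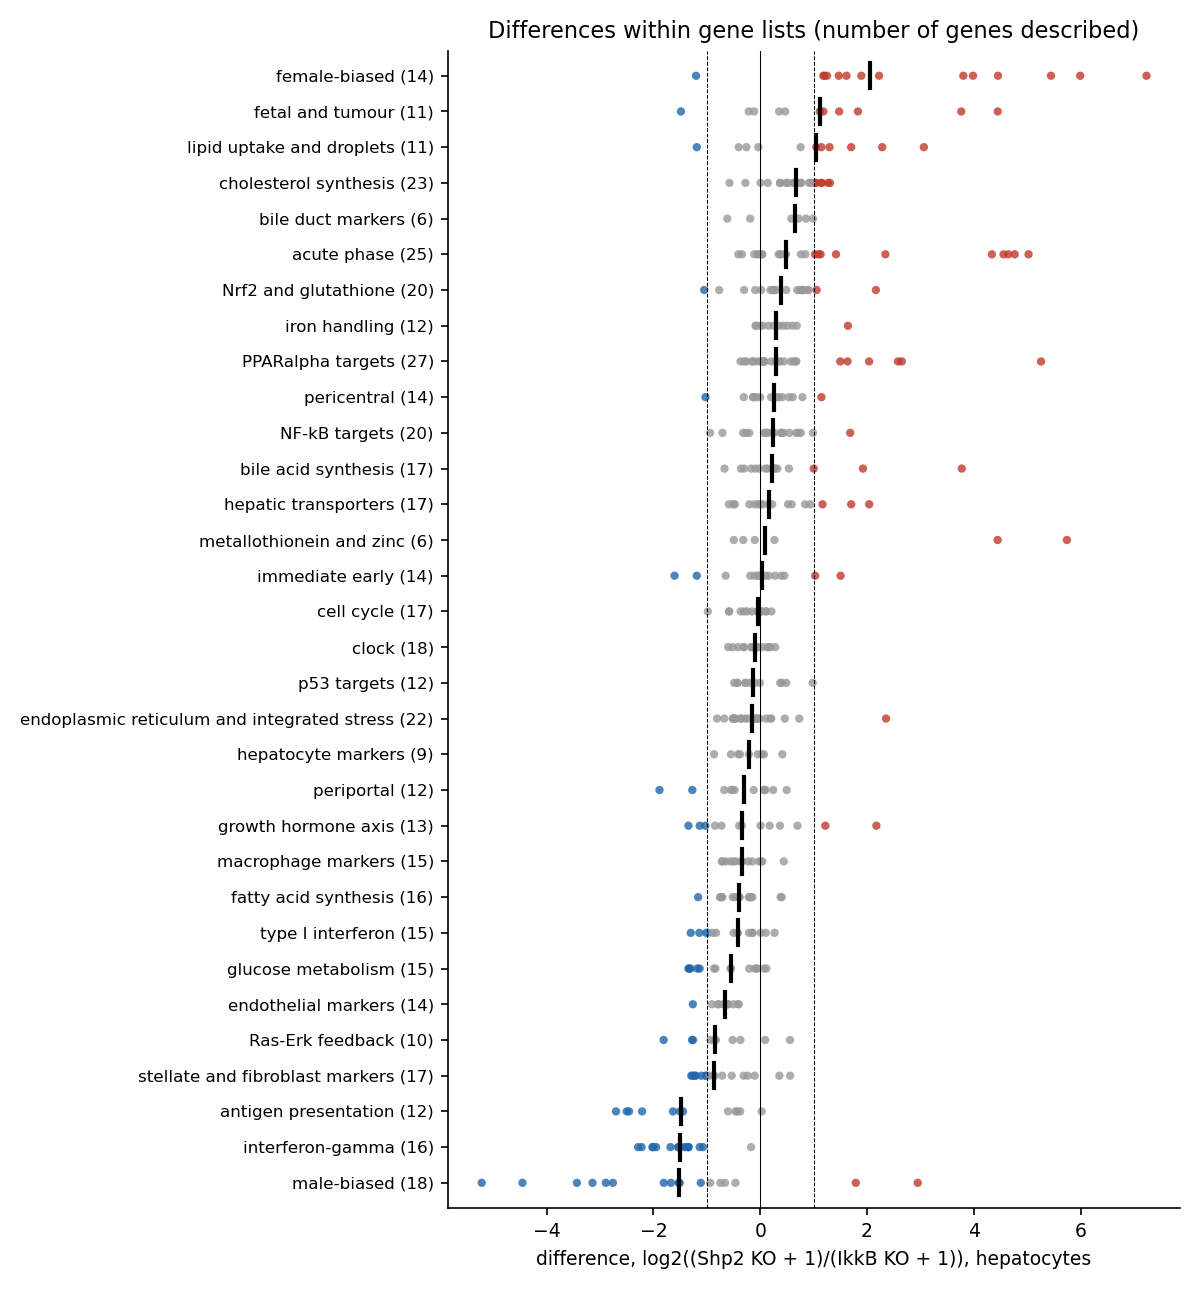
Difference log2((Shp2 KO + 1)/(IkkB KO + 1)) in hepatocytes for each gene described, by list, for the lists with at least 5 such genes (number in brackets), without the enzyme families grouped by symbol; black bars mark medians, dashed lines 2-fold, red and blue points genes past it. Among the lists plotted, female-biased genes have the highest median (2.06) and male-biased genes the lowest (-1.52), followed by the interferon-gamma list (-1.51) and antigen presentation (-1.47).

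Genes that respond to interferon-gamma were lower in Shp2 KO, nearly all of them past 2-fold. Of 16 genes, 15 were lower past 2-fold and 0 higher, with a median of -1.51, and Irf1, an early interferon-gamma target named after its value was seen, differed by -0.17. Igtp, a GTPase that attacks the vacuoles of intracellular parasites, stood at 17.4 in Shp2 KO, 88.9 in IkkB KO, 29.1 in Double KO and 40.4 in WT. Gbp3, a guanylate-binding protein, stood at 2.02 in Shp2 KO, 11.1 in IkkB KO, 2.29 in Double KO and 4.15 in WT. Both were below WT in Shp2 KO and above it in IkkB KO. Tgtp1 and Tgtp2, near-identical copies, had 0.231 and 0.129 in Shp2 KO and 3.99 and 4.26 in IkkB KO. Both reached 1 in IkkB KO alone, so the level threshold fixed their direction. They are part of the count and median of this list, which are a description. By the authors' deposited tables, 10 of 15 fell and 0 rose in Shp2 KO against WT (4.78% and 6.83% of all genes tested). In IkkB KO against WT, by the same tables, 11 of 16 rose and 0 fell (6.13% and 1.96%). In liver 13 of 15 were lower and 0 higher in Shp2 KO than in IkkB KO (5.07% and 5.22%). Igtp in liver was at 23.4 in Shp2 KO and 92.2 in IkkB KO. Of 15 type I interferon genes, 3 were lower past 2-fold (Ifi44, Oas1a and Irf7, from -1.30 to -1.01), with a median of -0.42, and Irf7 was no longer past it after centring on the median of all genes (-0.99). Of the 15, 4 reached 1 in IkkB KO alone, among them 2 of these 3, so the level threshold fixed their direction.

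Windows of 2 of the interferon-gamma GTPases are shown, chosen after their values were seen, because both recognition patterns of the pathway occur in them. TTCNNNGAA, which Stat dimers bind, was present in 6 of the 13 promoters of 12 such genes (8.30% of all promoters), and GAAANNGAA, a form of the interferon-stimulated response element, in 9 of the 13 (8.56% of all promoters). Several of these genes are recent copies of each other, so their windows are not independent. Capitals mark both patterns, which do not overlap here.
Igtp, chr11:58199306-58199605, plus strand: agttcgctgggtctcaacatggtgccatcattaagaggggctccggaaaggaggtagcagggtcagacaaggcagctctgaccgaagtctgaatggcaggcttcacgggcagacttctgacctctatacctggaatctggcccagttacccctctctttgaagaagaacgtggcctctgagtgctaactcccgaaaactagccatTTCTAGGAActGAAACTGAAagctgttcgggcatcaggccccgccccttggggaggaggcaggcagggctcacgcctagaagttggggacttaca
Tgtp2, chr11:49064163-49064462, minus strand: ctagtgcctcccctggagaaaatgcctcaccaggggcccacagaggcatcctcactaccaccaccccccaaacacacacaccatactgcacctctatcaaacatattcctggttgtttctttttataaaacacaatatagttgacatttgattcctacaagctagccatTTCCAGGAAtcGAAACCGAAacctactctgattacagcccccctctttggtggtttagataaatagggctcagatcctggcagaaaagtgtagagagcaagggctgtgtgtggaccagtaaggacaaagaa

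Antigen presentation genes were lower in Shp2 KO by the widest margin where they form MHC class II, the complex that shows peptides to helper T cells. Of 12 genes, 7 were lower past 2-fold and 0 higher, with a median of -1.47. H2-Eb1, a class II beta chain, stood at 7.23 in Shp2 KO, 52.5 in IkkB KO, 9.52 in Double KO and 6.91 in WT. H2-Ab1 stood at 14.5 in Shp2 KO, 86.7 in IkkB KO, 18.8 in Double KO and 15.4 in WT. Cd74, the invariant chain that guides class II, stood at 32.2 in Shp2 KO, 153 in IkkB KO, 44.6 in Double KO and 30.8 in WT. In hepatocytes all 3 were high in IkkB KO alone and near WT in the other knockouts. The authors' deposited table gave q = 0.00048 for each in IkkB KO against WT, and 0.923, 0.896 and 0.915 in Shp2 KO against WT. The class I chains H2-K1 and H2-D1 and their partner B2m differed by -0.43, -0.37 and -0.60. In whole liver 8 of 12 were called lower in Shp2 KO and 0 higher by the authors' deposited table (5.07% and 5.22% of all genes tested). H2-Eb1 there was at 21.6 in Shp2 KO and 55.0 in IkkB KO. Cd74 in liver was at 91.3 in Shp2 KO, 193 in IkkB KO, 199 in Double KO and 90.6 in WT, so it was not high in IkkB KO alone there.

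MHC class II is expressed mainly by immune cells, and markers of cells other than hepatocytes also differed between the preparations. Stellate and fibroblast markers had 7 of 17 genes lower past 2-fold in Shp2 KO and 0 higher, with a median of -0.87 and a summed value of 151 in Shp2 KO, 319 in IkkB KO, 169 in Double KO and 97.6 in WT. Colec11, a collectin of stellate cells, had 15.9 in Shp2 KO and 39.7 in IkkB KO, and Reln, a stellate matrix protein, had 2.19 in Shp2 KO and 6.37 in IkkB KO. Endothelial markers were lower in Shp2 KO for all 14 genes, 1 of them past 2-fold (Lyve1, 0.44 in Shp2 KO and 2.45 in IkkB KO), with a summed value of 88.2 in Shp2 KO, 152 in IkkB KO, 134 in Double KO and 79.0 in WT. Lyve1 was under 1 in Shp2 KO, which fixed its direction. Macrophage markers summed to 283 in Shp2 KO, 346 in IkkB KO, 360 in Double KO and 117 in WT, with 0 of 15 past 2-fold. By summed value, IkkB KO preparations thus held the most stellate and endothelial transcript, and all knockouts more macrophage transcript than WT. Not every stellate gene followed its sum: 15 of the 17 were lower in Shp2 KO and 2 were higher, by at most 0.56. Col1a1 was higher, at 1.65 in Shp2 KO against 0.79 in IkkB KO. It reached 1 in Shp2 KO alone, which fixed its direction. Col3a1 was highest in Double KO, at 6.30 against 6.16 for IkkB KO.

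Against WT, the authors' deposited table had 16 of 17 stellate, 13 of 14 endothelial and 14 of 15 macrophage markers that rose in IkkB KO. In Shp2 KO, by the same table, 7 stellate, 0 endothelial and 12 macrophage markers rose. Over all genes tested, 6.13% rose in IkkB KO and 6.83% in Shp2 KO. In whole liver the stellate list was not lower in Shp2 KO: 4 of 17 genes were called higher and 0 lower by the authors' deposited table (5.22% and 5.07% of all genes tested). Its summed value there was 316 in Shp2 KO and 304 in IkkB KO. More cells of a type and more RNA per cell cannot be told apart in these bulk samples. The part of these other cells in the class II, interferon-gamma and other differences was not tested.

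Markers of the remaining types were few. Bile duct markers had 6 genes described, with a median of 0.65 and 0 past 2-fold. Among lymphocyte markers 1 of 16 reached a value of 1, Ptprc, the leukocyte phosphatase CD45, at 0.817 in Shp2 KO and 1.43 in IkkB KO. Among neutrophil markers 2 of 12 did, and among erythroid markers 2 of 7. Of 9 pancreatic acinar markers 6 were at 0 in both knockouts and 2 reached 1, with Cela1 at 5.60 in Shp2 KO against 11.9 in IkkB KO. The hepatocyte markers were high in both groups, with 9 genes described, differences of -0.86 to 0.41 and 0 past 2-fold; 4 more were too abundant to test.

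**Figure D4:**
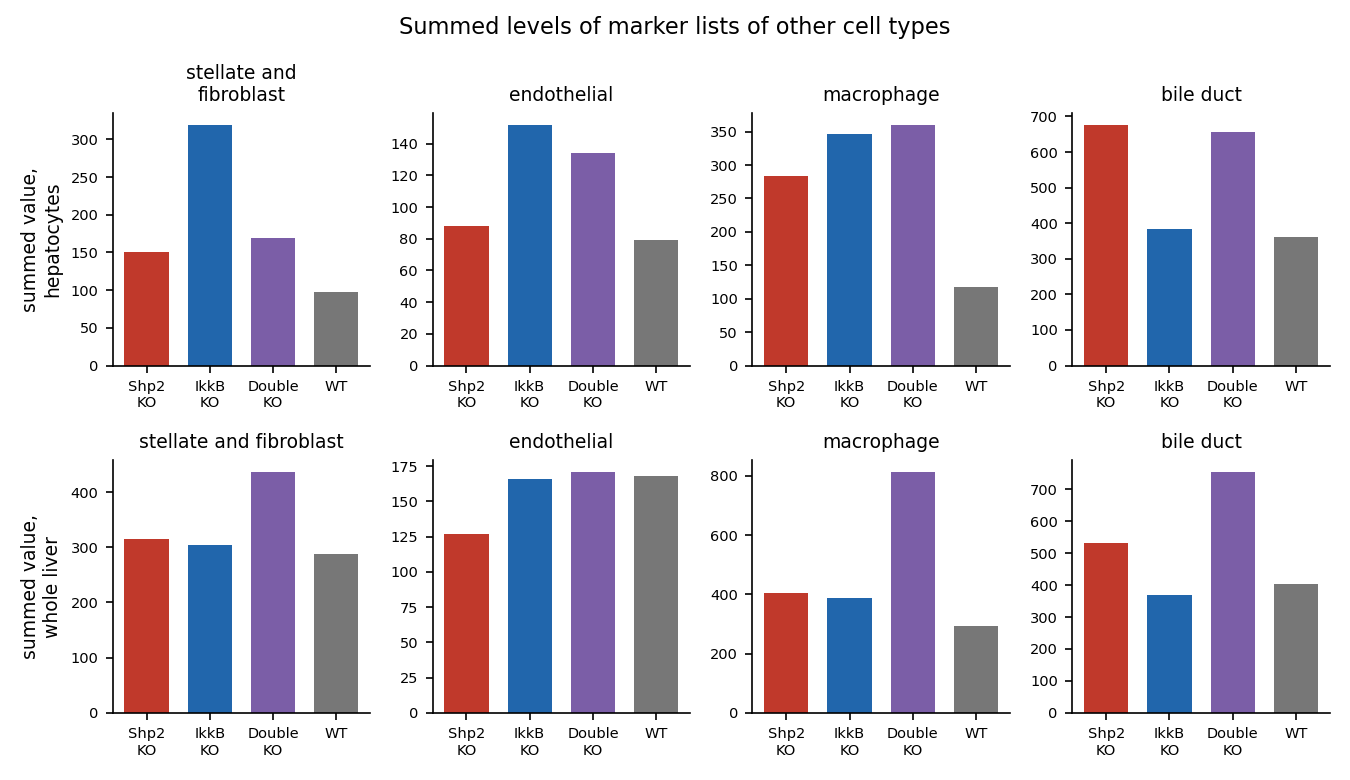
Summed deposited values of marker lists of 4 other cell types in Shp2 KO, IkkB KO, Double KO and WT, in hepatocyte preparations (top) and whole liver (bottom), 1 bar per genotype, no error bars. In hepatocyte preparations the stellate and fibroblast sum is 151 in Shp2 KO and 319 in IkkB KO, and in whole liver it is 316 in Shp2 KO and 304 in IkkB KO.

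Genes that report on Ras and Erk or on NF-kB were compared next. Among feedback genes of Ras and Erk, 3 of 10 were lower past 2-fold in Shp2 KO and 0 higher, with a median of -0.84. Of the 10, 4 reached a value of 1 in IkkB KO alone and 1 gene in Shp2 KO alone, so the level threshold fixed their direction. Spry4 is such a gene among the 3 lower ones, and the count and median are a description. Dusp6, the phosphatase that Erk induces against itself, stood at 3.40 in Shp2 KO, 14.4 in IkkB KO, 4.82 in Double KO and 8.64 in WT. Spry4, a receptor-pathway inhibitor, stood at 0.375 in Shp2 KO, 2.29 in IkkB KO, 0.574 in Double KO and 2.78 in WT, and Ccnd1, cyclin D1, at 4.95 in Shp2 KO, 13.4 in IkkB KO, 7.67 in Double KO and 4.93 in WT. Dusp6 and Spry4 were below WT in Shp2 KO, while Ccnd1 was above WT in IkkB KO. The authors' deposited liver table called 7 of 10 lower and 1 higher in Shp2 KO than in IkkB KO (5.07% and 5.22% of all genes tested). Among 20 NF-kB targets, 1 was higher past 2-fold, with a median of 0.24: Cxcl1, a neutrophil chemokine, stood at 14.8 in Shp2 KO, 3.90 in IkkB KO, 5.93 in Double KO and 32.2 in WT. Nfkbia, the inhibitor that NF-kB induces, differed by 0.11. Of 14 immediate early genes, Nr4a1 and Egr1 were lower past 2-fold (-1.60 and -1.19) and Socs3 and Gadd45b higher (1.51 and 1.03). Of the 2 higher ones 1 was under 1 in IkkB KO, which fixed its direction.

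Several of the widest differences belong to no list. Rgs16, a regulator of G protein signals, stood at 4.54 in Shp2 KO, 141 in IkkB KO, 0.967 in Double KO and 13.8 in WT, and in liver at 2.95 in Shp2 KO and 161 in IkkB KO. Pctp, a phosphatidylcholine carrier, stood at 4.08 in Shp2 KO, 48.8 in IkkB KO, 39.9 in Double KO and 26.9 in WT. Tmc5, a channel-like membrane protein, had 0.106 in Shp2 KO and 8.44 in IkkB KO, and Sult5a1, a sulfotransferase, 4.53 in Shp2 KO and 61.2 in IkkB KO. Rgs16 and Tmc5 were above WT in IkkB KO, at 0.906 for Tmc5 in WT, whereas Pctp was low in Shp2 KO alone. Rpl29, a ribosomal protein, was listed at 0.182 in Shp2 KO and 36.6 in IkkB KO hepatocytes but at 126 in Shp2 KO and 141 in IkkB KO liver; ribosomal protein genes have many processed copies, and its value is uncertain. Serpina4-ps1, a pseudogene, had 14.3 in Shp2 KO and 164 in IkkB KO hepatocytes, and 227 in Shp2 KO and 233 in IkkB KO liver. BC002163 stood at 81.3 in Shp2 KO, 1.41 in IkkB KO, 1.66 in Double KO and 23.9 in WT, and passed in neither knockout against WT in the authors' deposited table (q = 0.397 for Shp2 KO and 0.244 for IkkB KO).

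Other programs had few genes past 2-fold. Of 18 clock genes, 0 were past 2-fold, with a median of -0.10 and a range of -0.60 for Cry1 to 0.28 for Nfil3. Arntl, which encodes the activator Bmal1, stood at 1.51 in Shp2 KO, 1.74 in IkkB KO, 6.44 in Double KO and 4.81 in WT, so that both single knockouts were low together. Dbp, an output gene, stood at 82.2 in Shp2 KO, 86.5 in IkkB KO, 12.5 in Double KO and 50.2 in WT. Per2, a repressor, was 4.76 in Shp2 KO and 7.22 in IkkB KO. In whole liver, where the authors' deposited table tests the pair, 7 of 18 clock genes were called lower in Shp2 KO and 1 higher, where 5.07% and 5.22% of all genes tested were. Of 17 cell cycle genes and 12 p53 targets 0 were past 2-fold, and Cdkn1a, the p53-induced inhibitor, came closest at 0.98. With a pseudocount of 0.1 Cdkn1a reached 1.19 and Rrm2, a subunit of ribonucleotide reductase in the cell cycle list, -1.23, and Cdkn1a was also just past 2-fold after centring. Periportal genes had 2 of 12 lower (Cdh1 and Hal, -1.89 and -1.27), and of 14 pericentral genes 1 was higher and 1 lower (Oat, 1.15, and Glul, -1.02).

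The whole liver table holds a test of this pair of genotypes, in other libraries. Of the 250 genes higher past 2-fold in Shp2 KO hepatocytes, 240 were tested in liver, and the authors' deposited table called 159 of them higher and 4 lower in Shp2 KO liver. Of the 219 lower ones, 214 were tested, with 137 called lower and 4 higher. Over all genes tested in liver, 5.22% were called higher and 5.07% lower. Across the 10515 genes with both, the hepatocyte and liver differences had a Pearson correlation of 0.66 and a Spearman correlation of 0.52, given as a description, since genes are not independent. The 4 called the other way among those higher were Cyp2b9, Cyp2b10, Cyp17a1 and Cux2, all from the female-biased and growth hormone lists and partly named after their values were seen. Cyp2b9, a P450 of female liver, stood at 53.9 in Shp2 KO and 2.47 in IkkB KO hepatocytes, and at 0.0429 in Shp2 KO and 2.20 in IkkB KO liver. The 4 among those lower were Nr4a1, Irs2, Nrep and Tlr12. Whether hepatocyte and liver differences differ was not tested.

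**Figure D5:**
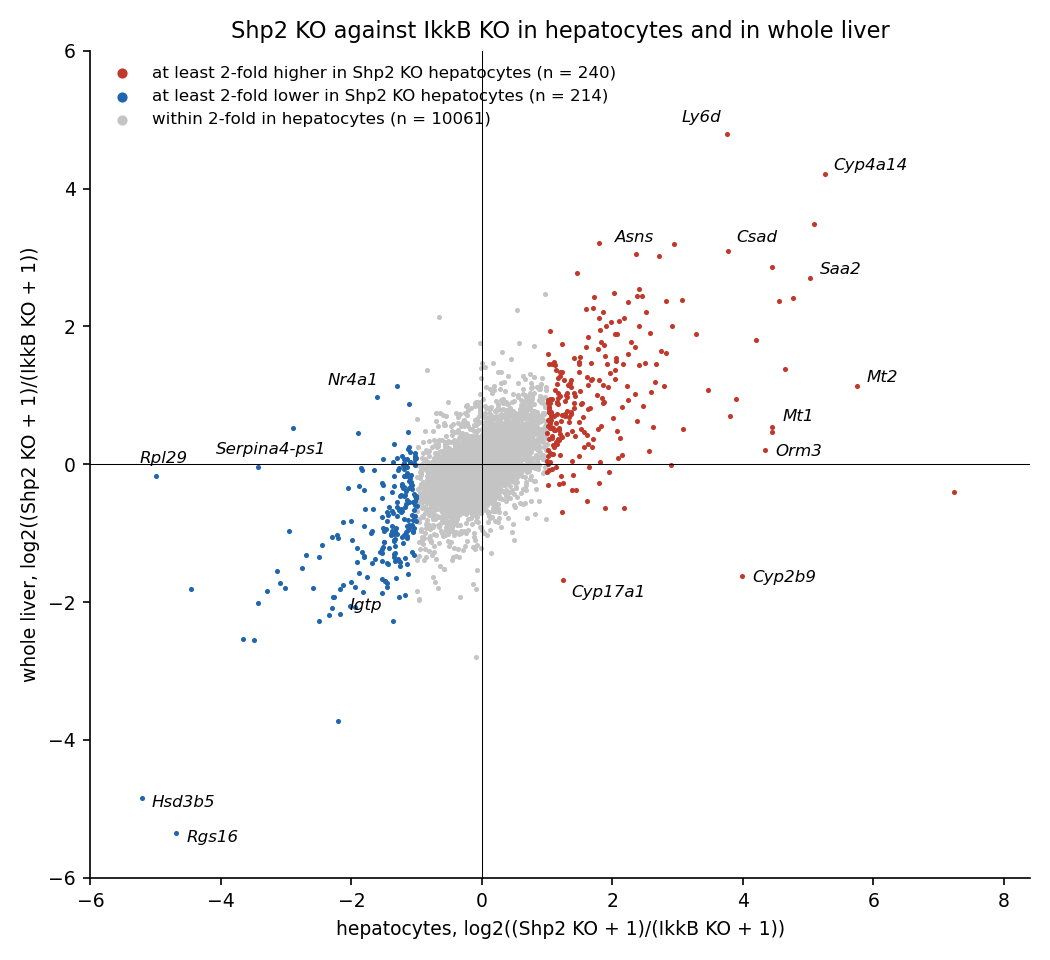
Difference between Shp2 KO and IkkB KO (log2 of value + 1) in whole liver on the vertical axis and in hepatocytes on the horizontal axis, for 10515 genes tested in liver, 1 point per gene. Most coloured genes lie at the upper right and lower left (Pearson 0.66 across genes), while Cyp2b9 and Serpina4-ps1 are far from 0 in hepatocytes and near 0 or on its other side in liver.

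The genes past 2-fold were also set against WT, as a description, since the same Shp2 KO and IkkB KO values chose them. By the authors' deposited table, 202 of 250 higher genes rose in Shp2 KO against WT, and 59 of 217 tested fell in IkkB KO against WT. Of the lower genes 153 of 216 tested fell in Shp2 KO against WT, and 92 of 219 rose in IkkB KO against WT. Over all genes tested, 6.83% rose and 4.78% fell in Shp2 KO, and 6.13% rose and 1.96% fell in IkkB KO. The Double KO value lay nearer to Shp2 KO than to IkkB KO for 148 of the 250 higher genes and 171 of the 219 lower ones. Of the genes nearer to IkkB KO, 102 were higher ones, among them Saa1, Saa2, Mt1, Mt2, Sult2a1 and Sult2a2.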

How the data were processed

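PolyA RNA of 24 samples (8 groups of 3) was sequenced from TruSeq v2 libraries, per the labels. Reads went through FastQC and Cuffdiff against mm9, per the submitters' processing notes; no source used here gives the aligner, annotation, versions or strand, so overlapping genes are uncertain. The authors deposited 1 table for hepatocytes and 1 for liver, each with 1 value per gene and genotype (unit not named, other than FPKM by Cuffdiff convention). The deposited log2 fold changes, test scores and p-values and q-values are the authors' own; q-values under 0.05 in rows marked OK were used as calls. There were 0 columns of per-sample values, no counts and no depths, so no interval, SD or test of the hepatocyte pair was computed.

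Values of Shp2 KO and IkkB KO came from their rows with WT, and differences used log2(value + 1). Small RNA genes and genes marked too abundant were left out of lists and naming after values had been seen. The members and all 36 gene lists (9 of cell type markers) were chosen with earlier results of these data known, and 5 lists were added later. Named were the targets, the 12 largest differences each way at a value of at least 5, up to 4 members past 2-fold per list, the clock genes, and otherwise a list's largest member. Some genes that the rule names are not reported here. Genes outside it are marked or serve as comparison within their list, and were chosen after values had been seen. Python 3.11.15, numpy 2.4.6, pandas 2.3.3 and matplotlib 3.10.9 were used. The calculation was run on IkkB KO values multiplied by set factors without noise, which checks the arithmetic only. Alternatives were a pseudocount of 0.1, other level filters, centring, 1.5-fold and 4-fold, stricter q-values and values from the Double KO rows.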

Additional observations from a re-analysis of the deposited data

How the results depend on the processing

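The counts past 2-fold over all genes of the rule, 317 higher and 298 lower, kept within 1.5 times under a minimum value of 5, no filter, centring on the median of all genes, values from the rows with Double KO, and removal of small RNA and too abundant genes (an alternative added after seeing the data). With a pseudocount of 0.1 the lower count was 461. At 1.5-fold 695 genes were higher and 710 lower, and at 4-fold 125 were higher and 96 lower. The next counts are over every gene with a test in the authors' deposited tables, without the level filter used for the shares above. Shp2 KO against WT had 1408 calls, 896 at q under 0.01 and 428 with 2-fold added. IkkB KO against WT had 1142 calls, 701 at q under 0.01 and 238 with 2-fold added, and Shp2 KO against IkkB KO liver 1295 calls and 311 with 2-fold added. Of the 116 named genes 0 changed direction under the pseudocount or centring. The pseudocount took 5 of them past 2-fold (Cdkn1a, Cela1, Hbb-b1, Ikbkb and Rrm2), and centring took 2 past it (Cdkn1a and Tm4sf4) and Irf7 back within it. No replicate could be left out, and no paired fit made, because the tables hold 1 value per genotype. No paired analysis was possible because the deposited tables carry no values per replicate. Unknown depth limits genes with values near 1 most.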
